A study of Homo sapiens with 9 samples.

Results

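The genes described here are 39 genes of the lysosome and of autophagy, named as a list and found in the deposited table by their Ensembl identifiers, all 39 among 61853 genes. They were measured by total RNA sequencing after removal of ribosomal RNA in 293T, a human embryonic kidney line that expresses the SV40 large T antigen. The Scramble group (genotype WT, scramble shRNA) and the DIS3-sh1 group (DIS3 knockdown, DIS3-sh1 shRNA) have 3 libraries each. A further group with another shRNA, DIS3-sh2, is not analysed here, because the names of 3 of the 9 per-sample columns match no sample label. The groups therefore differ by 1 shRNA in 1 cell line, and effects of that shRNA outside DIS3 cannot be told apart from the loss of DIS3. How the shRNA was delivered, and how long before harvest, is not stated in the labels.

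DIS3 is a catalytic ribonuclease of the nuclear RNA exosome, the complex that degrades and trims RNA from its 3' end. Lysosomes are acidic compartments in which hydrolases break down proteins, glycans and lipids. The proton pump V-ATPase acidifies them, and the glycoproteins LAMP1 and LAMP2 cover the inner face of their membrane. In autophagy, a membrane sheet grows around cytoplasmic cargo, closes and fuses with the lysosome. The ULK1 kinase starts the process, the BECN1 and ATG14 complex makes the lipid PI3P, WIPI proteins bind that lipid, and small ubiquitin-like ATG8 proteins (the LC3 and GABARAP families) are coupled to the membrane, where cargo receptors such as SQSTM1 hold on to them. The transcription factors TFEB and TFE3 switch on many of these genes through an E-box element called CLEAR.

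The promoters of some of these genes carry that element, and the sequences are shown because their carriers differed in direction in the data below. RefSeq windows on GRCh38.p14, from 250 bases before to 50 bases after an annotated start site, were matched by symbol for 32 of the 39 genes (38 windows, since some genes have several start sites). Letters searched were CACGTG, the core TCACGTGA and the full element GTCACGTGAC. All 3 read the same on both strands, and each longer one contains the shorter. CACGTG was in 9 of the 38 windows (23.7%), against 7.26% of all 35116 windows of this length. TCACGTGA was in 5 (13.2% against 0.98%) and GTCACGTGAC in 2 (5.26% against 0.353%). The runs below read 5′ to 3′ on the gene's strand, with the matched letters in capitals. The position given is that of the first matched base relative to the annotated start site, with negative positions before it.
GAA, chr17:80101493-80101567, plus strand, full matches at -78 and -33: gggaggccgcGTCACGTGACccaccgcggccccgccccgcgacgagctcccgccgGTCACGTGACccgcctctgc
LAMP1, chr13:113297037-113297112, plus strand, 4 short matches at -192, -176, -159 and -142: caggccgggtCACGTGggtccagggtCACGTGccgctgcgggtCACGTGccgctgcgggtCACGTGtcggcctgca
LAMP1, chr13:113297200-113297227, plus strand, core match at -29: acccgcgggaTCACGTGAcgcccgggcg
LAMP1, chr13:113297227-113297254, plus strand, core match at -2: gcggcgcagcTCACGTGAcaagcgctgc
ATP6V0D1, chr16:67481200-67481227, minus strand, core match at -60: ccccttatggTCACGTGAggcgcttgcg
CTSA, chr20:45891299-45891326, plus strand, core match at -26: gcgccggagtTCACGTGActcgtacaca
MCOLN1, chr19:7522598-7522627, plus strand, full match at -16: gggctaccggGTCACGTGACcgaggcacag
MCOLN1, chr19:7522572-7522599, plus strand, core match at -42: ccagaggcggTCACGTGAggggctctgg

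The other carriers of CACGTG alone were ATG14, CTSD, CTSF and NEU1. A match is a description of letters and not a shown binding site. The median percentage of G and C was 69.0 in windows of the genes called higher below and 66.7 for those called lower. It was 58.7 over all windows. The part of base content in the shares of windows with a match was not tested.

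The Scramble libraries held 20722775 to 23532148 counts each, and those of DIS3-sh1 held 19800892 to 21100677. Levels are given as CPM, the usual scaling of a count to its library's size, with sizes adjusted by the TMM method. DIS3 itself measured 175.8 to 186.1 CPM in Scramble and 26.6 to 27.9 CPM in DIS3-sh1, a log2 fold change of -2.71 ± 0.04 (SE, adjusted p = 6.76e-30). The share of counts in small structural RNA genes was 4.94% to 5.14% for Scramble and 8.24% to 9.38% for DIS3-sh1, highest in replicate 1. Mitochondrial genes took 2.2% to 2.23% of counts and then 2.78% to 3.47%. Genes marking the 293T line were all detected and mostly differed between the groups, given here as Scramble and then DIS3-sh1. VIM measured 1200 to 1210 and 1300 to 1330 CPM, PAX2 1.08 to 2.25 and 4.09 to 4.79 CPM, NEFL 87.8 to 90.5 and 75.6 to 78.5 CPM, and INA 47.6 to 50.5 and 21.4 to 22.5 CPM. NEFM measured 68.6 to 73.6 and 63.6 to 68.4 CPM. Markers of macrophages, which are rich in lysosomes, were nearly silent, with AIF1 and TYROBP at 0 in every library and 6 genes summing to 0.753 to 1.11 CPM in Scramble and 0.217 to 0.455 CPM in DIS3-sh1. The summed level of 5 fibroblast markers was 14.4 to 15.6 CPM in Scramble and 24.4 to 28.6 CPM in DIS3-sh1, nearly all of it COL1A1, with COL1A2 at 0 in every library. The part of these differences in the results below was not tested, beyond a fit without small structural and mitochondrial genes, which called 16 of the members higher and 19 lower. Of all 19196 genes in that fit, 6663 were called higher and 6345 lower. In bulk libraries such as these, fewer cells and less RNA in each cell cannot be told apart.

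Of the 39 genes, 38 passed the filter on low counts. The exception was CTSZ, a cathepsin, which was almost silent in this line: it had 5, 5 and 1 counts in the Scramble libraries and 0, 3 and 1 in the DIS3-sh1 libraries, too few for a fold change. The lowest tested gene, WIPI1, had 30 counts or more in each library.

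With DIS3-sh1, the genes split evenly: 18 rose, 18 fell and 2 were not called. A gene is called at an adjusted p under 0.05 in edgeR's quasi-likelihood test, with adjustment over all 19591 genes tested. Over all tested genes, 34.5% were called higher and 32.6% lower. Among the 12344 coding genes at or above the mean level of the lowest tested member, 35.8% were called higher and 41.8% lower. The median log2 fold change was -0.13 over the 38 genes and 0.02 over all genes tested, and the median size of change, whatever its sign, was 0.43 and 0.41. Over those 12344 coding genes, the median was -0.04 and the median size 0.36. The 2 groups of libraries did not overlap for 32 of the 38 genes, and for 69.8% of all genes tested. They did not overlap for 9758 of the 12344 coding genes. Increases of at least 2-fold were called for 3 of the 38 genes (GAA, GUSB and TFEB, 10.1% of all genes tested). Decreases of that size were called for 2 (LAMP1 and MAP1LC3B, 3.94% of all genes tested). Of the 12344 coding genes, 769 had a called increase and 296 a called decrease of that size. The summed level of the 38 genes was 2424 to 2450 CPM in Scramble and 2192 to 2299 CPM in DIS3-sh1, so that the groups did not overlap in the sum. Abundant genes weigh most in it, and GLA alone went from a mean of 256.9 to 136.6 CPM. The 20 lysosomal members took 0.1484% to 0.1507% of library totals in Scramble and 0.1431% to 0.1502% in DIS3-sh1, with overlap. With DESeq2 in place of edgeR, run without edgeR's filter on low counts, 11 genes were called higher and 18 lower. Over its 36392 genes, DESeq2 called 5721 higher and 5810 lower. The 7 lost calls are named beside their genes. Without DIS3-sh1 replicate 1, 14 were called higher and 18 lower, where 6567 of all 19997 genes in that fit were called higher and 6269 lower.

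**Figure D1:**
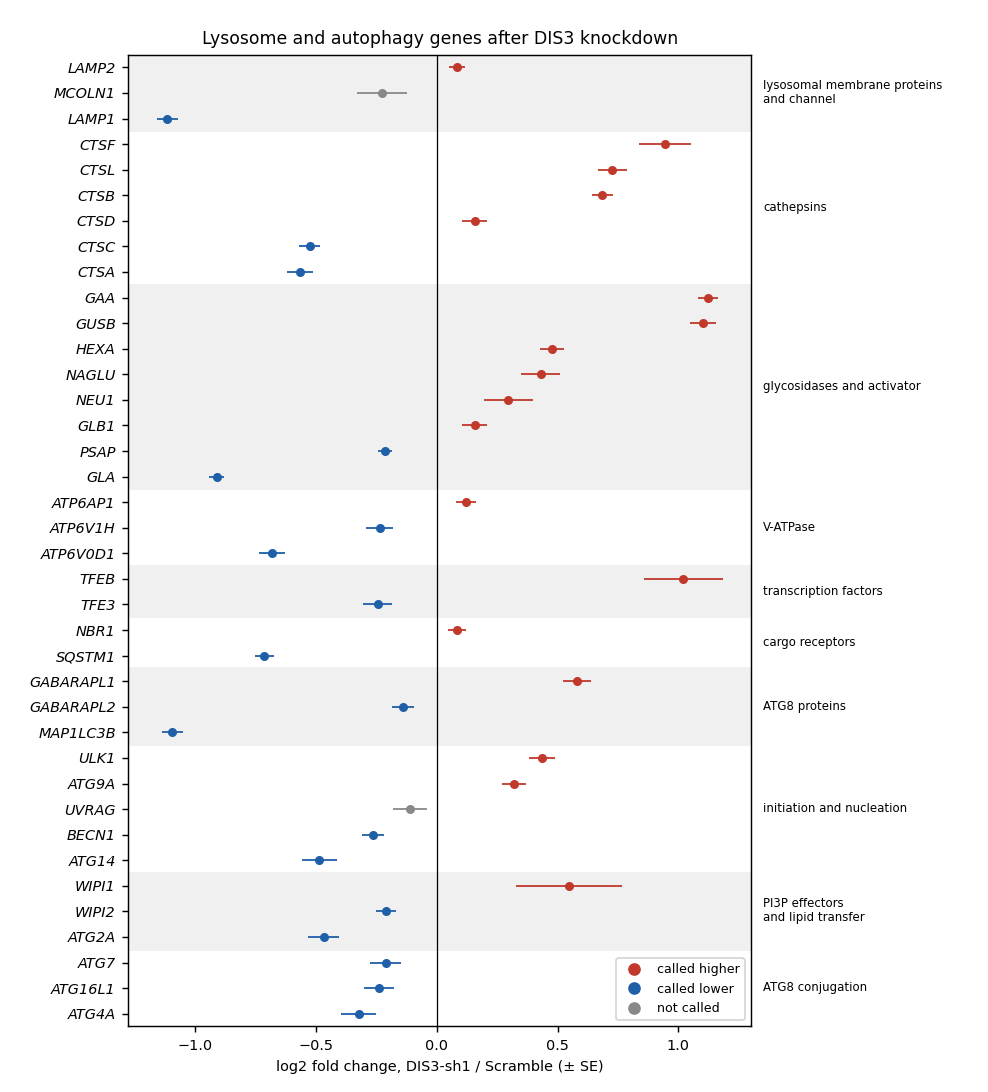
Log2 fold change of each of the 38 tested genes between DIS3-sh1 and Scramble (points, with the standard error as bars), grouped by role, with the call in edgeR's quasi-likelihood test as colour and n = 3 libraries per group. Values run from -1.12 for LAMP1 to 1.12 for GAA, and all roles except ATG8 conjugation, with 3 genes, hold genes on both sides of 0.

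Of 14 hydrolases and activators of the lysosome, 10 were called higher and 4 lower, with a median log2 fold change of 0.36, where 34.5% of all genes tested were called higher and 32.6% lower. DESeq2 did not call 3 of the 10 (NEU1, CTSD and GLB1). GAA, the acid alpha-glucosidase that degrades glycogen (ENSG00000171298.13, chromosome 17, 80101556 to 80119879, plus strand, hg38), measured 59.3, 60.3 and 58.7 CPM in Scramble and 137.2, 125.7 and 125.7 CPM in DIS3-sh1. All 3 DIS3-sh1 libraries lay above all Scramble libraries, and the means were 59.5 ± 0.83 and 129.5 ± 6.62 CPM (SD, n = 3), a log2 fold change of 1.12 ± 0.04 (SE, adjusted p = 1.01e-20). GUSB, the beta-glucuronidase that degrades glycosaminoglycans (ENSG00000169919.17, chromosome 7, 65960684 to 65982314, minus strand), measured 31.7, 28.9 and 30.0 CPM in Scramble and 67.3, 62.6 and 64.6 CPM in DIS3-sh1. It rose by a log2 fold change of 1.10 ± 0.05 (adjusted p = 7.65e-18), again with no overlap. GUSB often serves as a reference gene in quantitative PCR.

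HEXA, NAGLU, NEU1 and GLB1 were called higher by smaller amounts. HEXA, the alpha subunit of beta-hexosaminidase, measured 45.7 to 48.2 CPM in Scramble and 62.4 to 69.5 CPM in DIS3-sh1 (log2 fold change 0.48 ± 0.05, adjusted p = 7.63e-10). NAGLU, which acts on heparan sulfate, measured 14.2 to 16 CPM and 18.9 to 21.8 CPM (0.43 ± 0.08, adjusted p = 2.27e-05). Neither gene's groups overlapped. For NEU1, the lysosomal sialidase, the groups overlapped: 12.5, 11.2 and 9.83 CPM in Scramble against 15.3, 12.1 and 13.9 CPM in DIS3-sh1. Its log2 fold change of 0.30 ± 0.10 (adjusted p = 0.0113) missed the threshold with DESeq2 (adjusted p = 0.0763), without Scramble replicate 3 (0.10) and without DIS3-sh1 replicate 1 (0.0719). GLB1, the lysosomal beta-galactosidase, measured 47.3, 51.6 and 51.0 CPM and then 57.8, 56.6 and 52.5 CPM, with a narrow gap between the groups. Its increase of 0.16 ± 0.05 on the log2 scale (adjusted p = 0.00899) was not called with DESeq2 (0.0677) or without Scramble replicate 1 (0.0959).

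GLA and PSAP, which had the highest levels of the 39 genes, went down. GLA, the alpha-galactosidase A that is deficient in Fabry disease (ENSG00000102393.14, chromosome X, 101397803 to 101408012, minus strand), measured 257.8, 255.9 and 257.0 CPM in Scramble and 137.4, 135.3 and 137.1 CPM in DIS3-sh1. The replicates of each group lay close together, the groups did not overlap, and the gene fell by 0.91 ± 0.03 on the log2 scale (adjusted p = 3.13e-22). PSAP, the precursor of the saposins that help hydrolases reach their lipid substrates, measured 268.0, 264.3 and 266.1 CPM and then 237.0, 222.1 and 228.0 CPM. It fell by 0.22 ± 0.03 (adjusted p = 1.16e-07), a smaller change than that of GLA but also without overlap. The ratio of PSAP to GLA within a library was 1.03 to 1.04 in Scramble and 1.64 to 1.72 in DIS3-sh1.

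Of 6 tested cathepsins, proteases of the lysosome, 4 were called higher and 2 lower. Over all genes tested, 34.5% were called higher and 32.6% lower. CTSF, a cysteine protease, measured 8.4, 8.2 and 5.87 CPM in Scramble and 14.2, 14.2 and 14.9 CPM in DIS3-sh1 (log2 fold change 0.94 ± 0.11, adjusted p = 4.69e-09). CTSL, a cysteine endopeptidase, measured 28.3, 30.4 and 25.8 CPM and then 47.5, 45.6 and 47.0 CPM (0.73 ± 0.06, adjusted p = 3.45e-12). CTSB, an abundant cysteine protease, measured 59.1, 62.2 and 59.3 CPM and then 99.8, 99.0 and 91.5 CPM (0.69 ± 0.04, adjusted p = 1.01e-14). All 3 genes were higher in every DIS3-sh1 library than in any Scramble library. CTSD, the main aspartic protease of the lysosome, overlapped between the groups, at 67.0, 60.4 and 63.3 CPM against 77.0, 65.6 and 69.9 CPM. Its increase of 0.16 ± 0.05 (adjusted p = 0.00889) was not called with DESeq2 (0.0625), without Scramble replicate 2 (0.08) or without DIS3-sh1 replicate 1 (0.081). CTSC, which activates granule serine proteases by removing dipeptides, fell: 82.1, 77.1 and 80.8 CPM in Scramble became 56.4, 53.9 and 56.4 CPM in DIS3-sh1 (log2 fold change -0.53 ± 0.05, adjusted p = 6.93e-12). CTSA, the carboxypeptidase that shields NEU1 and GLB1 in a complex, fell from 59.1, 57.4 and 59.3 CPM to 42.7, 36.5 and 39.4 CPM (-0.57 ± 0.05, adjusted p = 9.77e-11). No library of CTSC or CTSA crossed between the groups. Within a library, CTSB was 0.72 to 0.81 times CTSC in Scramble and 1.62 to 1.84 times CTSC in DIS3-sh1.

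Of 3 tested genes of the lysosomal membrane, LAMP1 was called lower, LAMP2 was called higher and MCOLN1 was not called. LAMP1 (ENSG00000185896.11, chromosome 13, 113297241 to 113323672, plus strand) measured 123.4, 112.2 and 118.4 CPM in Scramble and 54.9, 55.1 and 53.3 CPM in DIS3-sh1. The groups did not overlap, the log2 fold change was -1.12 ± 0.04 (adjusted p = 2.22e-20), and the mean was 53.9% lower in DIS3-sh1. LAMP2, its close relative and the receptor of chaperone-mediated autophagy, measured 141.6, 141.2 and 141.8 CPM in Scramble and 144.0, 150.6 and 155.2 CPM in DIS3-sh1. The groups did not overlap, but the log2 fold change was 0.08 ± 0.03 (adjusted p = 0.0332), and this call was lost in 9 of 13 alternative settings, DESeq2 among them (adjusted p = 0.183). The ratio of LAMP2 to LAMP1 was 1.15, 1.26 and 1.20 in the Scramble libraries and 2.62, 2.74 and 2.91 in the DIS3-sh1 libraries. MCOLN1, the lysosomal calcium channel TRPML1, measured 10.7, 9.77 and 10.9 CPM and then 8.33, 10.2 and 8.33 CPM, with overlap. It was not called (log2 fold change -0.23 ± 0.10, adjusted p = 0.0564), although 4 alternative settings called it lower, with adjusted p down to 0.0157 without DIS3-sh1 replicate 2.

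Of the 3 V-ATPase genes, 2 were called lower and 1 higher, where 32.6% of all genes tested were called lower and 34.5% higher. ATP6V0D1, a subunit of the membrane sector, measured 64.0, 68.9 and 67.3 CPM in Scramble and 44.6, 38.0 and 41.8 CPM in DIS3-sh1 (log2 fold change -0.68 ± 0.05, adjusted p = 1.13e-12). ATP6V1H, a regulatory subunit of the cytosolic sector, measured 39.8, 41.5 and 43.7 CPM and then 36.9, 33.8 and 35.2 CPM (-0.24 ± 0.06, adjusted p = 0.000564). No library of either gene crossed between the groups. ATP6AP1, an accessory subunit that takes part in pump assembly, measured 103.1, 100.7 and 110.5 CPM against 122.3, 111.0 and 108.3 CPM, with overlap. Its increase of 0.12 ± 0.04 (adjusted p = 0.0151) was not called with DESeq2 (0.0979), nor without Scramble replicate 1 (0.0812) or 2 (0.115) or DIS3-sh1 replicate 1 (0.114).

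**Figure D2:**
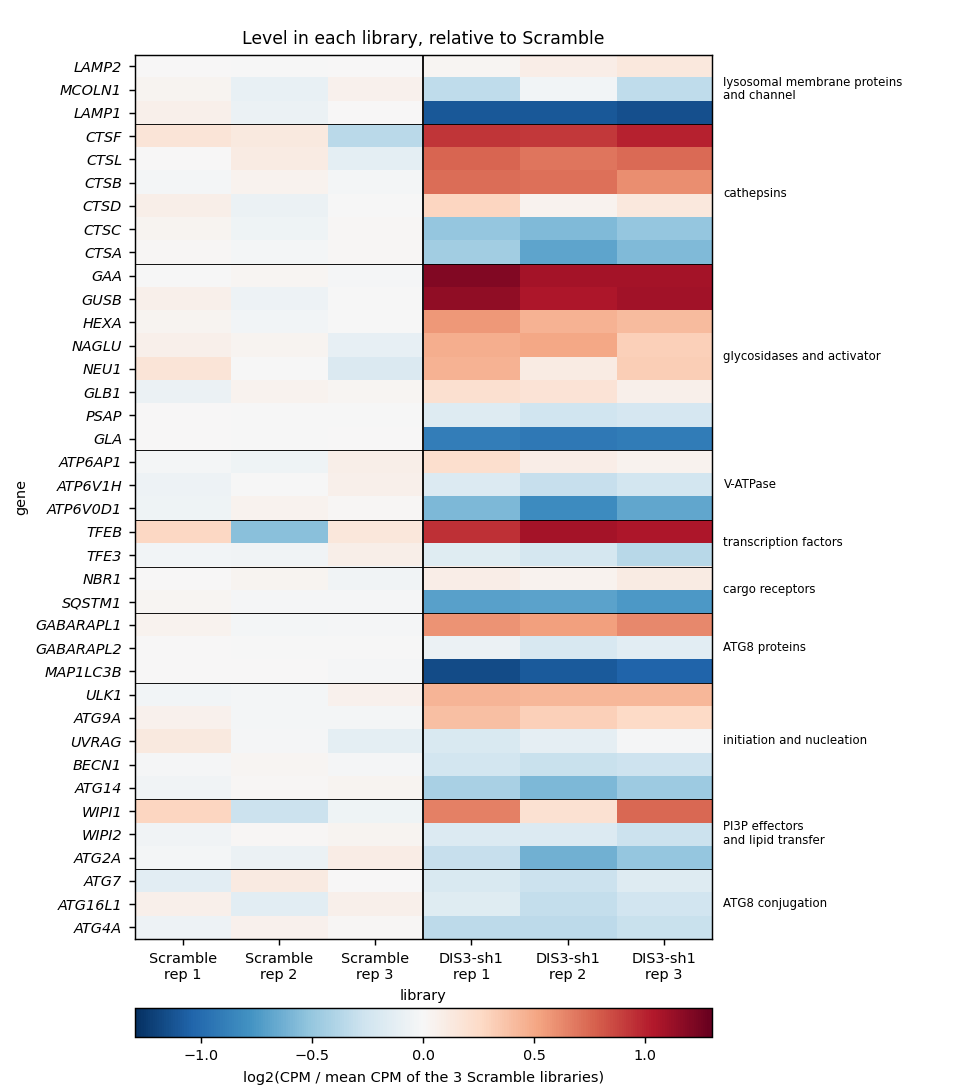
Level of each tested gene (rows, grouped by role) in each of the 6 libraries (columns), as log2 of its CPM over the mean CPM of the 3 Scramble libraries, with red above and blue below that mean. GAA, GUSB and TFEB were red and LAMP1, MAP1LC3B and GLA blue in all 3 DIS3-sh1 libraries, while Scramble replicate 2 was lowest for TFEB.

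TFEB and TFE3, the transcription factors of this gene network, moved in opposite directions. TFEB (ENSG00000112561.19, chromosome 6, 41683978 to 41736259, minus strand) was weakly expressed, at 3.53, 2.0 and 3.23 CPM in Scramble and 5.65, 6.18 and 6.05 CPM in DIS3-sh1. The lowest DIS3-sh1 library lay above the highest Scramble library, and the log2 fold change was 1.02 ± 0.16 (adjusted p = 2.13e-06). It ranged from 0.81 to 1.18 over the alternative settings. TFE3 measured 40.0, 39.7 and 43.3 CPM and then 36.9, 35.0 and 31.9 CPM, a decrease of 0.25 ± 0.06 on the log2 scale (adjusted p = 0.000687). Per kilobase of annotated exon, TFE3 stood at 9.57 in Scramble and 8.08 in DIS3-sh1 and TFEB at 0.517 and 1.06, so TFE3 remained the more abundant of the pair. The activity of both proteins is set largely by phosphorylation and entry into the nucleus, which mRNA levels do not show.

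The carriers of the E-box letters went both ways. Of the 9 genes with CACGTG in a window, 4 were called higher (GAA, CTSF, CTSD and NEU1), 4 lower (LAMP1, ATP6V0D1, CTSA and ATG14) and MCOLN1 was not called. GAA, with 2 copies of the full element, had a log2 fold change of 1.12, and LAMP1, with 2 core matches and 4 shorter ones, had one of -1.12. Among 254 tested genes with the core TCACGTGA in a window, 66 were called higher (26%) and 128 lower (50.4%), with a median log2 fold change of -0.14. For 1489 tested genes with CACGTG, the shares were 31.4% and 43.9%, with a median of -0.08. Of 12 core carriers among the other pathway genes described below, 3 were called higher and 4 lower (median -0.06). Of the 11998 tested genes with any window, 36.9% were called higher and 37.4% lower, with a median of 0.01. For coding genes at or above the lowest member, these were 35.8%, 41.8% and -0.04.

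Of 14 genes of the autophagy machinery, 9 were called lower and 4 higher, with a median log2 fold change of -0.21, where 41.8% of coding genes at or above the lowest member were called lower and 35.8% higher. The calls of ULK1, ATG9A and GABARAPL1 as higher held in all 13 alternative settings, and that of WIPI1 did not. ULK1, the kinase that starts autophagy, measured 33.6, 34.1 and 36.0 CPM in Scramble and 47.0, 46.8 and 46.6 CPM in DIS3-sh1 (log2 fold change 0.44 ± 0.05, adjusted p = 1.89e-08). ATG9A, a lipid scramblase carried by the vesicles that seed the membrane, measured 48.7, 46.1 and 46.1 CPM and then 61.4, 58.1 and 56.3 CPM (0.32 ± 0.05, adjusted p = 1.69e-06). Neither gene's groups overlapped. ATG9A shares 1833 exon bases with another gene on the same strand (AC068946.2), which was also called higher (0.22 ± 0.07), and how the authors' counting divided those reads was not given in the sources used here.

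BECN1 and ATG14, of the lipid kinase complex that acts after ULK1, were called lower. BECN1, the scaffold of that complex, measured 60.4, 62.1 and 60.2 CPM in Scramble and 51.7, 49.9 and 50.4 CPM in DIS3-sh1 (log2 fold change -0.26 ± 0.05, adjusted p = 1.09e-05). ATG14, which directs the complex to autophagy, measured 23.2, 24.2 and 24.7 CPM and then 18, 16 and 17.4 CPM (-0.49 ± 0.07, adjusted p = 7.53e-07). Neither overlapped between the groups. UVRAG, which takes the place of ATG14 in an endosomal form of the complex, was not called, at 32.3, 29.4 and 27.2 CPM against 25.8, 27.2 and 29.3 CPM with overlap (-0.11 ± 0.07, adjusted p = 0.157). BECN1 shares 300 exon bases with PSME3 on the other strand, which went from 272.8 to 89.2 CPM (log2 fold change -1.61 ± 0.03). The use of strand in the counting is not stated, so the part of those reads in the value of BECN1 was not tested.

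Of 3 genes that act on PI3P and on lipid transfer, WIPI2 and ATG2A were called lower and WIPI1 higher. WIPI2, the PI3P binder that recruits ATG16L1, measured 87.9, 91.8 and 93.4 CPM in Scramble and 80.3, 80.5 and 75.2 CPM in DIS3-sh1 (log2 fold change -0.21 ± 0.04, adjusted p = 5.80e-05). ATG2A, a lipid transfer protein that feeds the growing membrane, measured 50.8, 49.1 and 55.2 CPM and then 42.0, 33.5 and 36.4 CPM (-0.47 ± 0.07, adjusted p = 2.54e-07). Both were lower in every DIS3-sh1 library. WIPI1, a close relative of WIPI2, was the least expressed gene tested, at 2.11, 1.43 and 1.66 CPM against 2.73, 2.0 and 2.90 CPM, and its groups overlapped. Its increase of 0.55 ± 0.22 (adjusted p = 0.0285) was not called with DESeq2 (0.15) or in 4 of 6 fits that left out 1 library, with adjusted p up to 0.127. WIPI1 also shares 828 exon bases with ARSG on the other strand, which rose from 8.54 to 20.2 CPM.

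All 3 described genes of ATG8 conjugation fell by small amounts, where 32.6% of all genes tested were called lower. Other genes of this step, outside the 39, went both ways. ATG3, ATG5 and ATG4B were called lower, with log2 fold changes of -0.59, -0.58 and -0.21. ATG10, ATG16L2, ATG4C and ATG4D were called higher, at 1.06, 1.51, 0.12 and 0.20, and ATG12 was not called. The calls of ATG4C (adjusted p = 0.0493, with overlapping groups) and ATG4D (0.0178) were the weakest of these. The alternative settings were read for the members only. ATG4A, a protease that prepares and removes ATG8 proteins, measured 21.5, 23.5 and 22.9 CPM in Scramble and 17.8, 17.8 and 18.5 CPM in DIS3-sh1 (log2 fold change -0.32 ± 0.07, adjusted p = 0.000234). ATG16L1, the subunit that places the conjugation enzyme on the membrane, measured 42.0, 36.6 and 42.2 CPM and then 36.1, 32.6 and 33.8 CPM (-0.24 ± 0.06, adjusted p = 0.00121). ATG7, the E1-like activating enzyme, measured 32.5, 38.6 and 35.9 CPM and then 31.2, 29.4 and 31.7 CPM (-0.21 ± 0.06, adjusted p = 0.00487). The groups did not overlap for any of them, though the gaps for ATG16L1 and ATG7 were under 1 CPM. ATG7 was no longer called after upper-quartile scaling (adjusted p = 0.075) or when Scramble replicate 2 was left out (0.0542).

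The mRNAs of the 3 described ATG8 genes changed in their proportions. MAP1LC3B, the LC3B protein used as the standard marker of autophagosomes (ENSG00000140941.14, chromosome 16, 87383995 to 87404779, plus strand), measured 112.0, 112.6 and 111.1 CPM in Scramble and 50.1, 52.6 and 54.4 CPM in DIS3-sh1. It fell by 1.10 ± 0.04 on the log2 scale (adjusted p = 2.22e-20), a decrease that differed from that of LAMP1 by less than the standard error of either. GABARAPL1, of the GABARAP branch, measured 28.5, 27.2 and 27.3 CPM and then 41.5, 40.0 and 42.7 CPM (log2 fold change 0.58 ± 0.06, adjusted p = 2.63e-10). The ratio of GABARAPL1 to MAP1LC3B was 0.24 to 0.26 in Scramble and 0.76 to 0.83 in DIS3-sh1. GABARAPL2, also known as GATE-16, measured 66.6, 66.4 and 66.2 CPM and then 62.8, 57.6 and 60.3 CPM, without overlap. Its decrease of 0.14 ± 0.05 (adjusted p = 0.00809) was not called with upper-quartile scaling (0.253) or without DIS3-sh1 replicate 2 (0.0674). Per kilobase of exon, GABARAPL2 (21.9) and MAP1LC3B (21.1) led GABARAPL1 (6.77) in Scramble. In DIS3-sh1, GABARAPL2 (19.9) stood above GABARAPL1 (10.1) and MAP1LC3B (9.86), and the library values of the last 2 overlapped.

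The cargo receptors SQSTM1 and NBR1 also differed. SQSTM1, the p62 protein that carries ubiquitinated cargo (ENSG00000161011.20, chromosome 5, 179806398 to 179838078, plus strand), measured 119.1, 115.2 and 115.7 CPM in Scramble and 71.7, 71.9 and 69.7 CPM in DIS3-sh1. It fell by 0.71 ± 0.04 on the log2 scale (adjusted p = 1.39e-16), with no overlap. MRNIP, which shares 1582 exon bases with it on the other strand, measured 28.0 CPM in both groups. NBR1, a receptor of related build, measured 117.8, 120.4 and 113.6 CPM and then 124.9, 121.2 and 126.5 CPM. Its groups were separated by under 1 CPM, and the log2 fold change of 0.08 ± 0.04 (adjusted p = 0.0438) was lost in 7 of 13 alternative settings, with adjusted p = 0.213 in DESeq2. The ratio of NBR1 to SQSTM1 was 0.98 to 1.05 in Scramble and 1.69 to 1.82 in DIS3-sh1. This ratio and the others within libraries were chosen after the values were seen.

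Levels can be compared between genes only per length, here as CPM per kilobase of all annotated exons of a gene, a rough measure since a cell uses only some of them. GLA led in Scramble at 113 and PSAP followed at 82.2, then LAMP2 at 25.6. In DIS3-sh1, PSAP led at 70.7 and GLA followed at 60.0. The library values of GLA and PSAP did not overlap in either group. GAA moved from rank 12 (11.5) to rank 4 (25.1) and GUSB from rank 23 (7.57) to rank 9 (16.2), while MAP1LC3B moved from rank 6 to rank 15 and LAMP1 from rank 7 (20.6) to rank 16 (9.48). In Scramble the library values of GABARAPL2, ATP6AP1, MAP1LC3B, LAMP1 and CTSD, at ranks 4 to 8, overlapped between neighbours, as did those of several genes in the middle of the order. TFEB and WIPI1 were lowest in both groups.

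**Figure D3:**
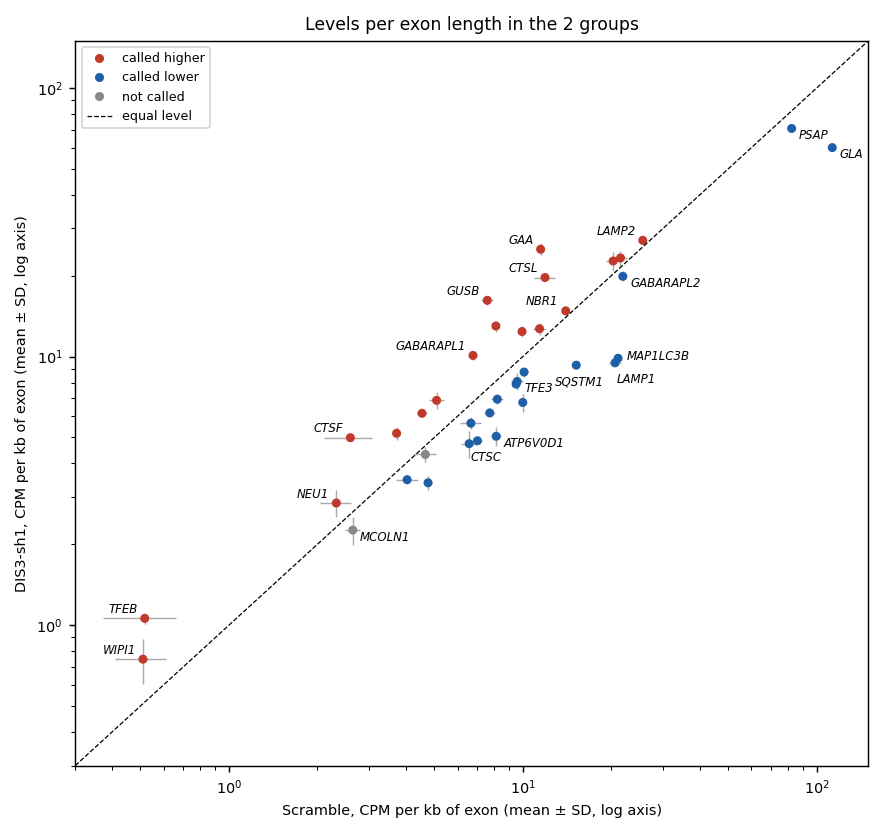
CPM per kilobase of annotated exon in Scramble (x axis) and DIS3-sh1 (y axis) for the 38 tested genes, both on log axes, as means with SD over 3 libraries, with the call as colour and a dashed line of equal levels. GLA and PSAP stand apart at the top in both groups, GAA and GUSB lie above the line, and LAMP1, MAP1LC3B and SQSTM1 lie below it.

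The rest of the pathway was read from 7 further lists, 150 of whose genes were tested. Of these 150, 67 were called higher and 52 lower. Over all genes tested, 34.5% were called higher and 32.6% lower. Among coding genes at or above the lowest member, the shares were 35.8% and 41.8%. The lists were written from general knowledge of the pathway, with earlier results of these data known. Of 35 other hydrolases and activators, 22 were called higher and 6 lower (median log2 fold change 0.41). HGSNAT, an acetyltransferase of heparan sulfate breakdown, rose from 20.5 ± 0.81 to 49.4 ± 2.15 CPM (1.27 ± 0.06), and DPP7, a dipeptidyl peptidase, from 1.88 ± 0.40 to 5.29 ± 1.36 CPM (1.49 ± 0.20). NAAA, an acid amidase, fell from 2.65 ± 0.10 to 0.98 ± 0.22 CPM, and CTSK, a collagen-degrading cathepsin, fell by 0.88 ± 0.22 on the log2 scale. Of 14 other V-ATPase subunits, 10 were called lower and 3 higher (median -0.38). ATP6V1C1, a subunit of the cytosolic sector, fell from 101.6 ± 3.34 to 48.0 ± 2.14 CPM (-1.08 ± 0.05), and ATP6V0B of the membrane sector fell by 0.78 ± 0.05. ATP6V1F and the accessory subunit ATP6AP2 rose by log2 fold changes of 0.42 and 0.41.

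Other membrane proteins of the lysosome were mixed, with 8 higher and 7 lower of 21 (median 0.02). The shares over all genes tested were 34.5% higher and 32.6% lower. LAMP3, a relative of LAMP1, rose from 2.21 ± 0.27 to 8.59 ± 0.86 CPM (log2 fold change 1.96 ± 0.15), and SIDT2, a membrane protein of the lysosome, rose by 1.11. CTNS, the cystine exporter, and LAPTM4A fell by 0.58 and 0.55. Of 10 genes that sort enzymes to the lysosome, 4 were higher and 3 lower (median 0.05). IGF2R, the large mannose 6-phosphate receptor, rose from 222.0 ± 5.45 to 321.6 ± 2.26 CPM (0.54 ± 0.03), as did the adaptor GGA3 (0.62), while NAGPA, which uncovers the mannose 6-phosphate tag, fell by 0.64 and the adaptor GGA2 by 0.50.

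Of 29 other genes of the autophagy machinery, 11 were called higher and 14 lower (median -0.12). The shares were 34.5% higher and 32.6% lower over all genes tested. They were 35.8% and 41.8% among coding genes at or above the lowest member. ULK2, the paralog of ULK1, rose from 6.93 ± 1.03 to 19.6 ± 2.20 CPM (log2 fold change 1.51 ± 0.11), and ATG16L2 from 4.35 ± 0.11 to 12.4 ± 1.34 CPM. RAB7A, a GTPase of fusion with the lysosome, fell from 180.5 ± 3.01 to 102.6 ± 1.56 CPM (-0.82 ± 0.03), and ATG101, a subunit of the ULK1 complex, fell by 0.82. Of 11 other cargo receptors, 7 were higher and 2 lower (median 0.23): OPTN, which binds ubiquitinated cargo, rose from 10.3 ± 0.67 to 27.0 ± 0.77 CPM (1.39 ± 0.08) and RETREG1, a receptor for the endoplasmic reticulum, by 0.67, and the mitochondrial receptors BNIP3 and FUNDC1 fell by 0.36 and 0.29. Of 30 genes of mTORC1 and TFEB control, 12 were higher and 10 lower (median 0.02). mTORC1 is the kinase complex that holds back autophagy and TFEB. Besides its subunits and regulators, the list holds the transcription factors MITF (not called) and ZKSCAN3 (called higher). RRAGD, a GTPase of nutrient sensing, rose from 32.3 ± 1.05 to 67.7 ± 1.93 CPM (1.07 ± 0.05), and SESN2, an inhibitor of mTORC1, rose by 0.80. LAMTOR3, a subunit of the lysosomal anchor of mTORC1, fell by 0.82 and AKT1S1, an inhibitory subunit, by 0.60.

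**Figure D4:**
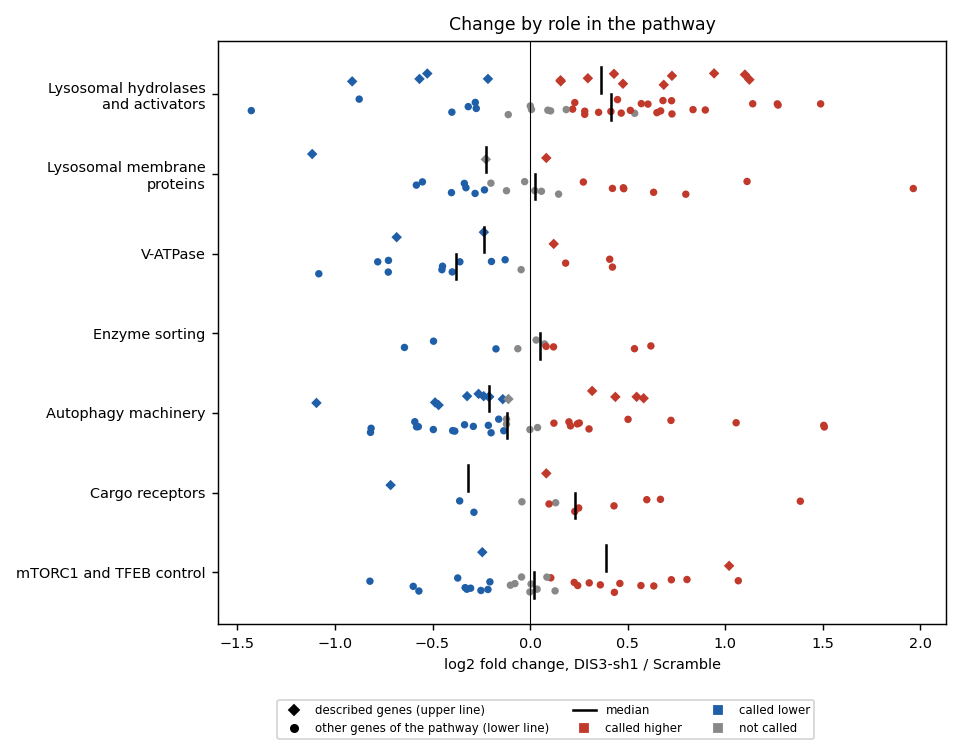
Log2 fold change between DIS3-sh1 and Scramble by role, with diamonds for the 38 described genes, circles for 150 other genes of the pathway, black bars for medians and colour for the call. Medians of the hydrolases lie above 0 (0.36 and 0.41) and those of the V-ATPase below 0 (-0.24 and -0.38), and every role holds genes that moved in each direction.

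Exon bases of 15 of the 39 genes are shared with another annotated gene, on the other strand for 12 of them. Among 11 called partners of called members, 8 went in the member's direction and 3 in the other. The same share over all overlapping genes was not computed, and the part of shared reads in the members' values was not tested. CTSA fell while 2 genes on the other strand rose: NEURL2, with 1038 shared bases, from 1.52 to 2.54 CPM and PLTP, with 200, from 16.8 to 35.1 CPM. MAP1LC3B shares 150 bases with FBXO31 on the other strand, which was not called (41.75 and 43.29 CPM). GLB1 rose while TMPPE, with 83, fell from 10.8 to 6.8 CPM. HEXA rose along with the overlapping gene AC009690.1 (0.80 ± 0.10), and CTSD with AC068580.4 (0.25 ± 0.07), each on the same strand. GAA, GUSB, GLA, LAMP1, PSAP, CTSB, CTSL, CTSF and TFEB share no exon bases with any other annotated gene.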

How the data were processed

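The members and gene lists were chosen with earlier results of these data known. RNA was extracted with TRIzol, depleted with RiboMinus and made into libraries with a stranded TruSeq total RNA kit, per the labels' protocols. The values deposited by the authors are estimated counts per Ensembl gene, not scaled for depth or length, and 53.2% to 56% of the values above 0 in a library, but 23.9% of the members' values, are exactly whole. The tools named, per the submitters' processing notes, are featureCounts 1.5.1, SAMtools, HISAT2 2.1.0 and Bowtie2 2.3.5, with build hg38. What each did, the annotation, and whether strand was used are not given in the sources used here. Of the per-sample columns, 3 match no label and were not used, so planned comparisons with DIS3-sh2 were not run and the fit holds 6 libraries.

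Values were rounded and tested with edgeR 4.0.16 (R 4.3.3): TMM scaling, expression filter by group, group as the sole term, robust quasi-likelihood F-test, two-sided, Benjamini-Hochberg adjustment over all tested genes, threshold 0.05. SE is the absolute log2 fold change over the square root of F. CPM are TMM-scaled, except those of the marker genes, which use library totals. The series' design text calls the replicates biological without naming separate cultures, so p-values measure the spread between these libraries, which may be technical. The fit was tested on simulated data. Named genes were all members, DIS3 and, from each further list, up to 2 called genes with the largest increase and 2 with the largest decrease at a mean of at least 1 CPM. Named outside that rule were marker genes, other genes of ATG8 conjugation, GABARAP, MITF, ZKSCAN3 and some genes that share exon bases with members. Alternatives were upper-quartile and RLE scaling, DESeq2 1.42.0, limma-voom (limma 3.58.1), keeping genes with low counts, a block for the replicate number, leaving out each library and, added after seeing the data, leaving out small structural and mitochondrial genes. Places and exon lengths came from GENCODE 29. Promoter sequences came from RefSeq on GRCh38.p14.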

Additional observations from a re-analysis of the deposited data

How the results depend on the processing

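Over 13 alternative settings, no gene changed direction, and 27 of the 36 calls held in all 13 (11 higher, 16 lower). The 9 calls lost in some setting were LAMP2, NBR1, WIPI1, ATP6AP1, NEU1, CTSD, GLB1, GABARAPL2 and ATG7, with values given beside each. UVRAG gained a call without Scramble replicate 3 (adjusted p = 0.0458) and MCOLN1 in 4 settings. DESeq2, run without the filter on low counts, called 11 genes higher in place of 18. The cause was not tested. The median log2 fold change of the genes, -0.13, was -0.045 with upper-quartile scaling, which moved the median of all genes from 0.019 to 0.099, and ranged from -0.161 to -0.095 when 1 library was left out. Leaving out 1 library gave 14 to 17 higher and 18 to 19 lower calls. Over all 19997 to 20191 genes in those fits, 6426 to 6567 were called higher and 6111 to 6269 lower. With the replicate number as a block, 18 were higher and 18 lower, with a median of -0.125. The numbers do not pair the libraries by the check used: deviations of same-numbered libraries correlated at 0.04, 0.01 and 0.01 over tested genes, though each library correlated best with its own number. Fitting only the groups compared was not run separately, since the fit held no others. The order of the largest changes is not settled: without Scramble replicate 1, TFEB (1.18) and GUSB (1.13) exceeded GAA (1.12) and MAP1LC3B (-1.10) exceeded LAMP1 (-1.09). Depth limits WIPI1, TFEB and CTSZ most.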
